A study of Mus musculus with 6 samples.

Results

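Phagocytosis checkpoints are ligand and receptor pairs that tell a macrophage or another phagocyte whether to engulf a cell. From the 32285 genes counted in single cells of mouse pancreatic tumours, 9 were taken by symbol, and all 9 were found: the ligands Cd47, Cd24a and Thbs1, the ligand Calr, and the receptors Sirpa, Siglecg, Pirb, Lilrb4a and Lrp1. CD47 on a target cell binds SIRPα on the phagocyte and sends a "don't eat me" signal through phosphatases that SIRPα recruits. CD24 does the same through Siglec-10, whose mouse counterpart is Siglec-G, and PirB and LILRB4 are inhibitory receptors of the same signalling design, PirB being a receptor for MHC class I. Calreticulin, when displayed on the surface, is an "eat me" signal that is read by LRP1, and thrombospondin-1 is a secreted ligand of CD47. Tumour cells of many kinds carry CD47, while SIRPα is typical of macrophages, neutrophils and some dendritic cells.

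The tumours were grown in C57BL/6 mice by injecting KPC cells, a mouse pancreatic cancer line, into the pancreas. KPC cells carried either a control vector (OE-Vector) or a construct overexpressing Mlkl (OE-MLKL), the pseudokinase that carries out necroptosis, and each group had 3 tumours in the labels. Tumours were dissociated, red blood cells were removed, and cells were captured on the 10x Genomics platform, which counts 3' ends of transcripts as UMIs (unique molecular identifiers). Count matrices of 4 libraries were analysed: 1 OE-Vector library and OE-MLKL libraries 1, 2 and 3, while the matrices of OE-Vector 2 and 3 were not analysed here. Both groups therefore share the KPC cells, the host strain and the injection site, and differ by the construct. The construct was put into the tumour cells alone, so that host cells of both groups were unmodified. With 1 OE-Vector library, a difference between the groups cannot be told apart from a difference between single tumours, and the lone library is assumed to vary as the OE-MLKL libraries do.

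Libraries held 150591289 to 169978362 UMIs and gave 15382 to 23063 cells with a median of 1983 to 5287 UMIs. Cells were assigned to types by marker genes, none of which is among the 9 genes, and a cell that met the minimum of more than 1 type was left out. Of all cells, 77.9 to 88.7% met 1 gate, 1.13 to 3.92% several and 10.2 to 19.99% none. Libraries had 3087 to 8659 cancer-like cells, 1870 to 2955 macrophage-like, 4894 to 8001 neutrophil-like, 574 to 1025 T cell-like and 29 to 182 dendritic cell-like cells. Median depth was 12203 to 25342 UMIs in cancer-like cells but 751 to 1442 in neutrophil-like cells, which bears on shares of cells with a UMI more than on CPM levels. Cells just above a gate's minimum made up 0.454 to 2.096% of cancer-like and 3.85 to 13.8% of dendritic cell-like cells. The cancer-like gate used epithelial markers such as Krt8 and Epcam, and copy number was not called. Cancer-like cells may therefore include epithelial cells that are not tumour cells. The dendritic cell marker Cd209a was at 0 in at least 1 library. The genes that led the dendritic cell-like gate over the other gates were Ccl17, Xcr1, Ccl22 and Ccr7. Its levels therefore stand for the dendritic cells that passed this gate and may not hold for others. Macrophage markers, which summed to a median of 312 to 420 per 10000 UMIs in macrophage-like cells, were at 13.4 to 24.9 in neutrophil-like, 5.29 to 14.4 in T cell-like and 3.73 to 9.38 in cancer-like cells. Any pair of libraries shared 73 to 134 cell barcodes, of which 14 to 35 fell in the same gate.

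Mlkl itself, the gene overexpressed in the tumour cells, was at 16.5 CPM (UMIs of the gene per 1000000 UMIs of the cell type in that library) in cancer-like cells of the OE-Vector library, with a 95% Poisson interval of 15.7 to 17.4 that covers counting error only, and at 8.46, 12.8 and 19.6 CPM in OE-MLKL 1, 2 and 3. That put OE-Vector inside the OE-MLKL range, with a difference of −0.42 ± 0.39 (log2, SE; edgeR quasi-likelihood adjusted p = 0.979). In macrophage-like cells the level was 10.2 CPM against 10.1 ± 2.90 (SD, n = 3). The counts thus do not separate the groups by Mlkl. Whether the construct's transcript is counted under Mlkl in these 3' libraries was not tested. The text below speaks of the libraries labelled OE-MLKL.

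Between groups, none of the 9 genes passed the test in any of the 5 cell types (edgeR quasi-likelihood test, threshold of 0.05 on the adjusted p). Over all genes tested the share called was 0% in cancer-like and neutrophil-like cells, 0.0219% in macrophage-like, 0.0258% in T cell-like and 0.311% in dendritic cell-like cells. At an unadjusted p under 0.05 there was 1 member in macrophage-like and 1 in T cell-like cells, Lrp1 in both, and 0 in the other cell types, against 5.84% and 5.07% of all genes in those 2 cell types and 4.87%, 7.88% and 4.28% in cancer-like, neutrophil-like and dendritic cell-like cells. The OE-Vector value lay outside the range of the 3 OE-MLKL values for 4, 6, 4, 3 and 2 of the 9 members in cancer-like, macrophage-like, neutrophil-like, T cell-like and dendritic cell-like cells, where the share over all genes was 51.1%, 53.8%, 58.7%, 44% and 41.6%. It lay above all 3 for 1, 2, 2, 2 and 1 members (18%, 18.1%, 15.8%, 18% and 18.7% of all genes) and below all 3 for 3, 4, 2, 1 and 1 (33.1%, 35.6%, 42.9%, 26% and 22.9%). The median log2 difference of the members was −0.08, 0.18, −0.55, 0.10 and −0.13 in that order, beside 0.03, 0.04, 0.04, 0.02 and 0.04 for all genes tested. DESeq2 called 117, 67, 79, 19 and 0 genes in the same comparisons, and 0 of the members. On simulated counts the edgeR test recovered 37.0% of genes changed 4-fold in cancer-like cells and 24.0% in neutrophil-like cells, so that changes of that size can be missed.

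The members were then compared between cell types. In a fit of the 20 sums of library and cell type, with library as a term, 8 of the 9 members differed between cancer-like and macrophage-like cells (68.3% of all genes were called) and 8 between cancer-like and neutrophil-like cells (80.5%). There were 5 between cancer-like and T cell-like cells (65.3%), 7 between cancer-like and dendritic cell-like cells (54.2%), 8 between macrophage-like and neutrophil-like cells (70%) and 6 between macrophage-like and T cell-like cells (60%). All 9 differed between macrophage-like and dendritic cell-like cells (35.9%) and between neutrophil-like and T cell-like cells (72.2%), and 8 and 6 differed between dendritic cell-like cells and neutrophil-like (57.8%) or T cell-like cells (34.5%).

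**Figure D1:**
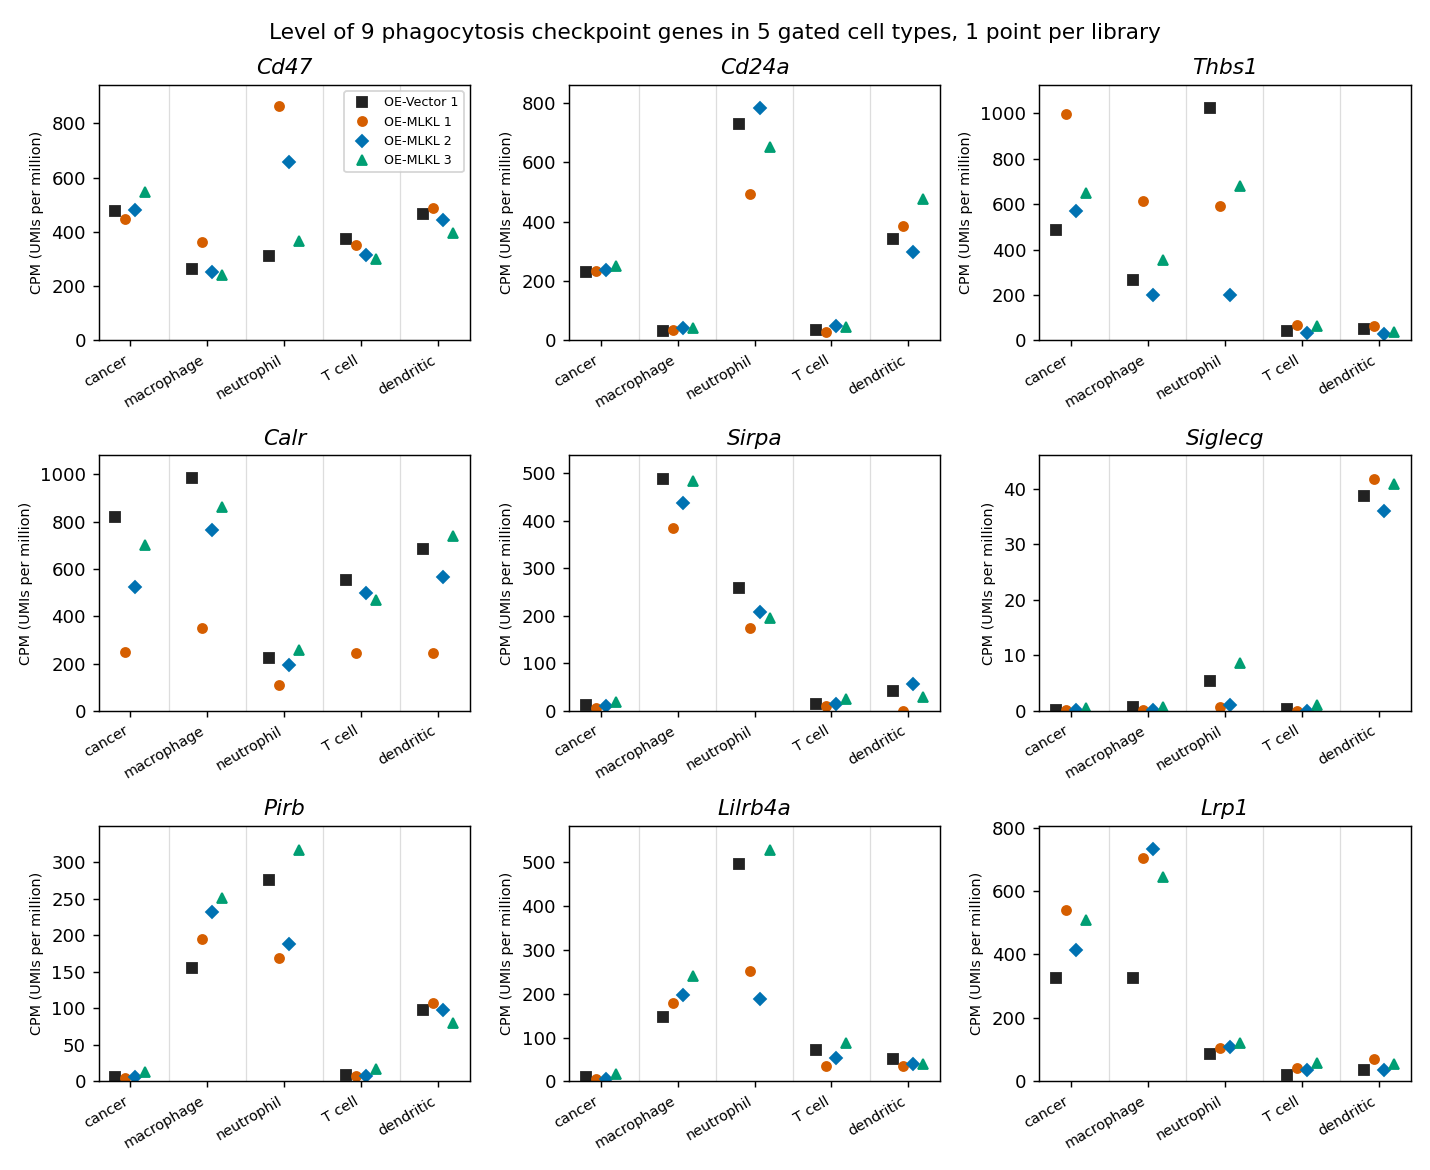
Level of each of the 9 genes (1 panel per gene, vertical axis in CPM from 0, a scale of its own in each panel) in the 5 cell types on the horizontal axis, with 1 point per library and a colour and marker for each of the 4 libraries. Sirpa sat at 384 to 488 CPM in macrophage-like cells and at 6.79 to 17.8 CPM in cancer-like cells, while Cd47 stayed within 242 and 866 CPM in every cell type.

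Cd47 (chr16:49800533-49915010, GRCm38, plus strand), the ligand of SIRPα, was counted in every cell type. In cancer-like cells it was at 479 CPM in the OE-Vector library and at 446, 483 and 546 CPM in OE-MLKL 1, 2 and 3. The 4 values spread by little and the OE-Vector value lay within the OE-MLKL range. The OE-MLKL mean was 491 ± 50.5 CPM (SD, n = 3) and the log2 difference −0.08 ± 0.32 (edgeR adjusted p = 0.996), which became 0.038 with scaling by library size alone. Over all settings tried it stayed between −0.089 and 0.038.

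In neutrophil-like cells the spread of Cd47 was wider. It was at 311 CPM in the OE-Vector library and at 866, 657 and 368 CPM in the 3 OE-MLKL libraries, all above OE-Vector, though OE-MLKL 3 was nearer to OE-Vector than to OE-MLKL 1. The log2 difference was 0.79 ± 0.58 (edgeR adjusted p = 0.748), with values of 0.46 to 1.08 over the alternative settings. Median depth of neutrophil-like cells was 1219 UMIs in OE-Vector and 751, 785 and 1442 UMIs in OE-MLKL 1, 2 and 3. OE-MLKL 1 and 2, the shallower libraries, were thus those with most Cd47, and the part of depth was not tested. Restricting to deeper cells, of at least 1000 UMIs, gave 307 CPM in OE-Vector and 885, 668 and 369 CPM in the OE-MLKL libraries. That kept 4238 of 5638 cells in OE-Vector and 1098 of 4894, 1917 of 8001 and 5592 of 6095 cells in OE-MLKL 1, 2 and 3. Thinned to 500 UMIs per cell, 14.0%, 33.2%, 26.3% and 16.3% of neutrophil-like cells had a Cd47 UMI in the same order of libraries.

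Macrophage-like cells held 264 CPM of Cd47 in OE-Vector and 364, 252 and 242 CPM in OE-MLKL 1, 2 and 3. T cell-like cells held 376 CPM and 350.1, 314 and 302 CPM, all 3 below OE-Vector. Dendritic cell-like cells held 465 CPM and 489, 446 and 398 CPM. The log2 differences were 0.02 ± 0.38, −0.25 ± 0.37 and −0.11 ± 0.44, each smaller than its standard error (edgeR adjusted p = 0.997, 0.999 and 0.9999). The difference in macrophage-like cells turned to −0.24 without OE-MLKL 1, and that in dendritic cell-like cells to 0.02 without OE-MLKL 3. The difference between the macrophage-like and cancer-like log2 values was 0.07 ± 0.33 (edgeR adjusted p = 1), in a test that called 0% of all genes and 0 of the members, also at an unadjusted p under 0.05 (5.67% of all genes).

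By mean level over the 4 libraries, Cd47 ran from neutrophil-like (551 ± 259 CPM, SD, n = 4) over cancer-like (488 ± 41.7), dendritic cell-like (449 ± 38.6) and T cell-like (335 ± 33.8) to macrophage-like cells (280.5 ± 56.5). CPM is a share of a cell type's UMIs and not an amount per cell. Of the Cd47 UMIs in gated cells, 80.5 to 86.5% lay in cancer-like and 4.69 to 6.80% in neutrophil-like cells. Those percentages also depend on cell numbers and depth. Cancer-like cells were above macrophage-like cells in 4 of 4 libraries, by 0.61 ± 0.18 on the log2 scale (edgeR adjusted p = 0.00438). Neutrophil-like cells were called above cancer-like cells (0.44 ± 0.18, adjusted p = 0.0290), but only 2 of 4 libraries showed it, and the adjusted p was 0.654 with library-size scaling, 0.512 without OE-MLKL 1 and 0.251 without OE-MLKL 2. Cancer-like and dendritic cell-like cells did not differ beyond their spread, nor did T cell-like and macrophage-like cells. Dendritic cell-like cells were above T cell-like cells in 4 of 4 libraries (0.56 ± 0.18, adjusted p = 0.0216), a call that ended with library-size scaling (0.114), without OE-MLKL 2 (0.0887) and without OE-MLKL 3 (0.106). Shares of cells thinned to 500 UMIs were 20.3 to 22.7% in cancer-like and 11.4 to 16.7% in macrophage-like cells, beside unthinned shares of 91.0 to 97.5% and 68.1 to 80.4%.

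Barcodes with at most 100 UMIs hold mostly RNA from outside cells, and their level serves as a reference for such free RNA. Cd47 was at 333, 369, 354 and 308 CPM in those of OE-Vector and OE-MLKL 1, 2 and 3. Cancer-like cells stood at 121 to 177% of that level, macrophage-like cells at 71.2 to 98.6%, and T cell-like cells at 88.7 to 113%. For comparison, S100a8, a neutrophil gene, was at 6.52 to 11.1% of its free level in cancer-like cells and at 11.1 to 19.6% in macrophage-like cells. Apoe, a macrophage gene, was at 9.14 to 10.8% in cancer-like cells and at 16.9 to 37.1% in neutrophil-like cells. Cd47 in all 5 cell types was thus above the percentages that these markers had in cells that should lack them. S100a8 and Apoe are themselves gate markers, and cells in several gates were left out. Their percentages in other cell types may be held down by that selection. A gene at or near the percentages of these markers is called in the range of background below, with the higher one of Apoe used for neutrophil-like cells only. The part of free RNA in any difference between groups was not tested.

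**Figure D2:**
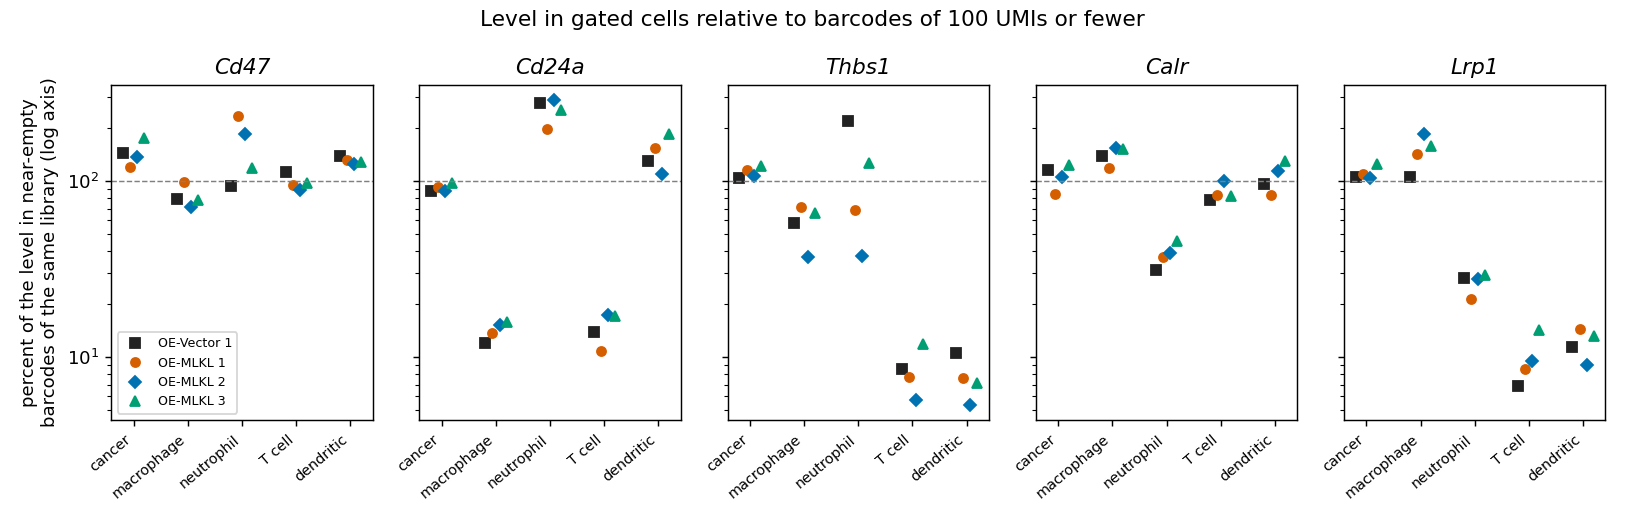
Level of Cd47, Cd24a, Thbs1, Calr and Lrp1 (1 panel each) in the 5 cell types as a percent of the level in barcodes of at most 100 UMIs of the same library, on a log axis, with 1 point per library and a dashed line at equal levels. Cd47 sits at 71.2% or higher in every cell type, whereas Cd24a in macrophage-like and T cell-like cells sits between 10.8 and 17.5%.

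Cd24a (chr10:43578284-43584265, plus strand), a glycosylated surface protein read by Siglec-G, was evenly expressed across libraries in cancer-like cells, at 229.8 CPM in OE-Vector and 233, 239 and 252 CPM in OE-MLKL 1, 2 and 3. The OE-Vector value was the lowest of the 4, and the fitted log2 difference was −0.04 ± 0.30 (edgeR adjusted p = 0.998), or 0.07 with library-size scaling. Neutrophil-like cells held 729.7 CPM against 493, 783 and 653 CPM, overlapping between groups (−0.43 ± 0.39, adjusted p = 0.806). Dendritic cell-like cells held 341 CPM against 387, 298 and 478 CPM.

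The order of Cd24a was neutrophil-like (665 ± 126 CPM, SD, n = 4), dendritic cell-like (376 ± 76.8), cancer-like (238 ± 9.68), T cell-like (38.9 ± 9.12) and macrophage-like cells (37.2 ± 4.76). Each of the first 3 steps held in 4 of 4 libraries, by 1.04 ± 0.17, 0.79 ± 0.17 and 2.64 ± 0.17 on the log2 scale (edgeR adjusted p = 2.4e-05, 0.000411 and 3.9e-11). T cell-like and macrophage-like cells were not separated, and their levels were 10.8 to 17.5% and 12.1 to 15.8% of the free level, in the range of background. Neutrophil-like cells were at 197 to 288% of it, dendritic cell-like cells at 110 to 186% and cancer-like cells at 87.5 to 97.8%. Those cell types were thus above the range of background, though cancer-like cells stayed below the free level in 4 of 4 libraries. Among cells thinned to 500 UMIs, a UMI of Cd47 or Cd24a was found in 29.1 to 31.9% of cancer-like cells and in 37.5 to 46.4% of neutrophil-like cells. Thinned to 1000 UMIs these shares were 49.5 to 53.2% and 58.6 to 71.0%, and unthinned, where cancer-like cells are far deeper, 94.0 to 98.9% and 60.5 to 72.03%.

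Thbs1 (chr2:118111876-118127133, plus strand) encodes thrombospondin-1, a secreted matrix protein that binds CD47. The long non-coding gene Gm29233 lies across it in antisense. In cancer-like cells it was at 484 CPM in OE-Vector and 997, 569.6 and 649 CPM in the OE-MLKL libraries, all above OE-Vector. In neutrophil-like cells the values ran the other way, at 1022 CPM in OE-Vector and 591, 199 and 680.1 CPM in OE-MLKL 1, 2 and 3, all below OE-Vector. The log2 differences were 0.52 ± 0.48 and −1.30 ± 0.64 (edgeR adjusted p = 0.979 and 0.661), and whether they differ from each other was not tested. Without OE-MLKL 1 the cancer-like difference was 0.17. OE-Vector lay below all OE-MLKL libraries in one cell type and above all in another for 19.1% of the genes tested in all 5 cell types. Macrophage-like cells held 268 CPM against 615, 198 and 353 CPM, groups that overlap (0.45 ± 0.63, adjusted p = 0.927), and the sign turned to −0.12 without OE-MLKL 1.

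Over libraries, Thbs1 was at 675 ± 225 CPM in cancer-like, 623 ± 338 in neutrophil-like, 358 ± 182 in macrophage-like, 50.1 ± 17.6 in T cell-like and 45.3 ± 15.8 CPM in dendritic cell-like cells (SD, n = 4). The first pair did not differ beyond its spread, and its fitted sign turned with library-size scaling. Neutrophil-like cells were above macrophage-like cells by 0.98 ± 0.30 in 3 of 4 libraries (edgeR adjusted p = 0.00708), a call that ended without the OE-Vector library (0.0770). Macrophage-like cells were above T cell-like cells in 4 of 4 libraries (3.01 ± 0.33, adjusted p = 1.3e-07), and the T cell-like and dendritic cell-like values were 5.76 to 11.9% and 5.40 to 10.5% of the free level, in the range of background.

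Calr (chr8:84841850-84846934, minus strand) encodes calreticulin, a chaperone of the endoplasmic reticulum (ER) that becomes an engulfment signal when it reaches the surface. Transcript counts do not tell how much protein is displayed. In cancer-like cells it was at 820.1 CPM in OE-Vector and 248, 522 and 699.8 CPM in OE-MLKL 1, 2 and 3. All 3 lay below OE-Vector, and OE-MLKL 1 was far below the others. The log2 difference was −0.89 ± 0.49 (edgeR adjusted p = 0.979), and −0.60 without OE-MLKL 1. Its lowest value over all alternative settings was −1.11.

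OE-MLKL 1 was also the lowest library in every other cell type. Macrophage-like cells held 985 CPM against 350.3, 766 and 864 CPM, T cell-like cells 555 CPM against 245, 499 and 469 CPM, dendritic cell-like cells 685 CPM against 244, 568 and 739 CPM, and neutrophil-like cells 223 CPM against 109.7, 195 and 259 CPM. The same library was lowest in the barcodes of at most 100 UMIs, at 294 CPM beside 708 in OE-Vector and 496 and 566 CPM in OE-MLKL 2 and 3. Log2 differences from OE-Vector were −0.70 ± 0.48, −0.51 ± 0.43, −0.45 ± 0.45 and −0.50 ± 0.47 in those 4 cell types, with no call (edgeR adjusted p between 0.808 and 0.9999). Without OE-MLKL 1 they were −0.42, −0.29, −0.17 and −0.25.

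By mean level Calr ran from macrophage-like (741 ± 276 CPM, SD, n = 4) over cancer-like (573 ± 248), dendritic cell-like (559 ± 222) and T cell-like (442 ± 136) to neutrophil-like cells (197 ± 63.6). Neutrophil-like Calr was at 31.5 to 45.7% of the free level, near the range of background for these cells. Macrophage-like cells were above cancer-like cells in 4 of 4 libraries, by 0.62 ± 0.13 on the log2 scale (edgeR adjusted p = 0.000272). Cancer-like and dendritic cell-like cells did not differ beyond their spread. T cell-like cells were above neutrophil-like cells in 4 of 4 libraries (0.83 ± 0.13, adjusted p = 1.3e-05) and below dendritic cell-like cells in 3 of 4 (0.43 ± 0.14, adjusted p = 0.0197), a call that ended with library-size scaling (0.0702) and without OE-MLKL 3 (0.231).

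The genes with a pattern most like Calr over the 20 sums, among 8982 genes, were Pdia3 (Pearson r = 0.91), Hyou1 (r = 0.89) and Oxct1 (r = 0.89), of which Pdia3 and Hyou1 encode proteins of ER folding. These sums share libraries, so the values describe likeness only. Other ER chaperones are given in cancer-like cells, named after their values were seen. Hsp90b1, the ER form of HSP90, was at 1208 CPM in OE-Vector and 399.6, 487 and 783 CPM in the OE-MLKL libraries, with a log2 difference of −1.26 ± 0.38 (edgeR adjusted p = 0.924). Hspa5, the ER form of HSP70, was at 862 CPM against 258, 409 and 793 CPM. Canx, the membrane-bound relative of calreticulin, was at 384 CPM against 238, 266 and 385 CPM. OE-MLKL 1 was the lowest library for each of these.

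**Figure D3:**
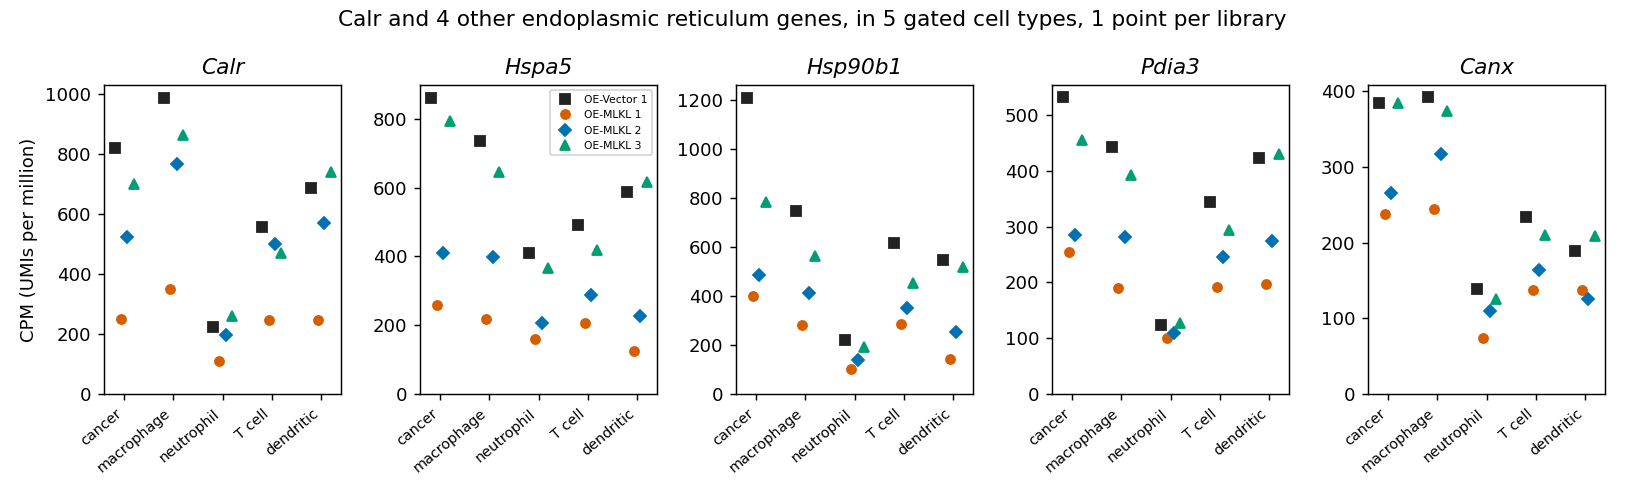
Calr, Hspa5, Hsp90b1, Pdia3 and Canx (1 panel each, vertical axis in CPM from 0) in the 5 cell types on the horizontal axis, with 1 point per library. OE-MLKL 1 is the lowest of the 4 libraries for Calr in all 5 cell types, at 109.7 to 350.3 CPM.

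The promoters of Calr and these 3 chaperones are shown because OE-MLKL 1 was the lowest library for each in cancer-like cells. Each is the 250 bases before the start of the RefSeq transcript, read on the strand of the gene from GRCm38.p6, with matches to the ER stress response element (CCAAT and CCACG separated by 9 bases of any kind), searched on both strands, in capitals. They are Calr at chr8:84846932-84847181 (minus strand), Hspa5 at chr2:34771840-34772089 (plus), Hsp90b1 at chr10:86705445-86705694 (minus) and Canx at chr11:50325674-50325923 (minus).
Calr: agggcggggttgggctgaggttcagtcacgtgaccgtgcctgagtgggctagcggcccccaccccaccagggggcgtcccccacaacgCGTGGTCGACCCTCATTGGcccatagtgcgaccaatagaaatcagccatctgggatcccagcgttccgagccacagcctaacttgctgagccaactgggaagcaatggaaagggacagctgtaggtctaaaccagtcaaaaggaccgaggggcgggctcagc
Hspa5: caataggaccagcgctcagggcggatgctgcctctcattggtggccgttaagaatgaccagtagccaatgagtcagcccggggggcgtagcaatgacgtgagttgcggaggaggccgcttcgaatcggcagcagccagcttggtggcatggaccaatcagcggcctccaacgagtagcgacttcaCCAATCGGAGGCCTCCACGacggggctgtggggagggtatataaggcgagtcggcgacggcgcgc
Hsp90b1: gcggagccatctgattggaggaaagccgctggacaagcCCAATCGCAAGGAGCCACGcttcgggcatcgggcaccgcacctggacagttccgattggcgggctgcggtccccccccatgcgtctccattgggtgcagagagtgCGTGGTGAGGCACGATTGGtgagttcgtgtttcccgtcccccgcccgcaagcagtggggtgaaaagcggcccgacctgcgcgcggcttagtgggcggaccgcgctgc
Canx: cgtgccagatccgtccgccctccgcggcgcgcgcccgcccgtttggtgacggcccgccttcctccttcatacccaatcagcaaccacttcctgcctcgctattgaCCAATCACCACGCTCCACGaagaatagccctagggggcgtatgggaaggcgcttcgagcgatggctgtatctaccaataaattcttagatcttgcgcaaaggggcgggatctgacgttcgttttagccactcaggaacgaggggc
In Calr the match lies on the other strand, 162 to 144 bases before the start. Hspa5 has it at 65 to 47, Canx at 145 to 127, and Hsp90b1 has one at 212 to 194 and another, on the other strand, at 107 to 89 bases before the start. The element was in 37 of 32851 promoters of this length (0.113%). Pdia3 was searched as well, has no match to these letters in its window and is not printed. The genes printed encode ER proteins and the element is named for ER stress, so these matches are no independent result. A match describes the letters and is not evidence of binding.

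Sirpa (chr2:129592835-129632228, plus strand), the receptor of CD47, was counted mainly in phagocytes. In macrophage-like cells it was at 488 CPM in OE-Vector and 384, 438 and 485 CPM in OE-MLKL 1, 2 and 3, and in neutrophil-like cells at 258 CPM against 174, 208 and 195 CPM. OE-Vector was the highest library in both, by a small margin in macrophage-like cells. The log2 differences were −0.27 ± 0.30 and −0.67 ± 0.31 (edgeR adjusted p = 0.907 and 0.649). Dendritic cell-like cells held 41.3 CPM in OE-Vector and 0, 57.5 and 29.5 CPM in OE-MLKL 1, 2 and 3, where a count of 0 in OE-MLKL 1 allows up to 17.9 CPM.

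Sirpa was at 449 ± 48.7 CPM in macrophage-like, 209 ± 35.7 in neutrophil-like, 32.1 ± 24.3 in dendritic cell-like, 15.9 ± 5.73 in T cell-like and 11.8 ± 4.80 CPM in cancer-like cells (SD, n = 4). Macrophage-like cells were above neutrophil-like cells in 4 of 4 libraries (0.97 ± 0.21 on the log2 scale, edgeR adjusted p = 0.000329) and above cancer-like cells by 5.54 ± 0.25 (adjusted p = 7.6e-14). Dendritic cell-like cells were called above T cell-like cells in 3 of 4 libraries (1.19 ± 0.31, adjusted p = 0.00510), and that call ended without the OE-Vector library (0.0949). Macrophage-like cells held 365 to 637% of the free level. The cancer-like and T cell-like levels, 9.97 to 13.6% and 10.8 to 20.3% of the free level, were in the range of background and were not separated from each other, though T cell-like cells were called higher when cells of several gates were kept (−0.59 for cancer-like minus T cell-like, adjusted p = 0.0403). Thinned to 500 UMIs, 17.2 to 21.7% of macrophage-like cells and 0.325 to 1.09% of cancer-like cells had a Sirpa UMI. The paralogs Sirpb1a, Sirpb1b and Sirpb1c share sequence with Sirpa, so that reads may be split among them. All 3 were higher in neutrophil-like than in macrophage-like cells, for example Sirpb1b at 109 against 14.2 CPM (−3.104 ± 0.16 on the log2 scale, macrophage-like minus neutrophil-like, adjusted p = 3e-12), opposite to Sirpa.

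Siglecg (chr7:43408204-43418358, plus strand), the receptor of CD24 and best known from B cells, was sparse. Dendritic cell-like cells held 38.7 CPM in OE-Vector and 41.7, 35.9 and 40.8 CPM in OE-MLKL 1, 2 and 3, from 46, 7, 10 and 72 UMIs. The libraries did not differ beyond counting error, and the log2 difference was −0.04 ± 0.48 (edgeR adjusted p = 0.9999), or 0.03 with library-size scaling. B cell-like cells, which were not part of the comparisons, held 175, 76.5, 164 and 208 CPM in the same order. Neutrophil-like cells held 5.31 CPM against 0.702, 1.13 and 8.71 CPM, and macrophage-like cells 0.708 CPM against 0.166, 0.230 and 0.738 CPM.

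Siglecg in dendritic cell-like cells was above neutrophil-like cells by 3.07 ± 0.41 on the log2 scale in 4 of 4 libraries (edgeR adjusted p = 2.4e-06), and neutrophil-like above macrophage-like cells by 3.16 ± 0.45 (adjusted p = 3.4e-06). Macrophage-like, T cell-like and cancer-like cells were not separated from one another, at means of 0.461, 0.370 and 0.251 CPM. In macrophage-like cells it was at 17.3 to 33.1% of a free level that itself rested on 7 to 19 UMIs. T cell-like cells of OE-MLKL 1 and 2 had 0 UMIs, which allows up to 1.18 and 1.20 CPM, and the gene was not tested there. Without OE-MLKL 3 the neutrophil-like difference between groups was called (−2.68, adjusted p = 0.0280), on 42, 3 and 8 UMIs in the remaining libraries.

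Pirb (chr7:3711409-3720391, minus strand), an inhibitory receptor for MHC class I on myeloid and B cells, belongs to a cluster with the highly similar Pira genes, so that its counts are uncertain to the extent that reads were shared. Macrophage-like cells held 154.5 CPM in OE-Vector and 195, 231 and 251 CPM in OE-MLKL 1, 2 and 3, all above OE-Vector. Neutrophil-like cells held 276 CPM against 168, 188 and 317 CPM, overlapping between groups. The log2 differences were 0.44 ± 0.29 and −0.55 ± 0.42 (edgeR adjusted p = 0.867 and 0.760). Over the alternative settings the neutrophil-like difference ran from −0.85 to −0.30. Dendritic cell-like cells held 97.7 CPM against 107, 97.1 and 80.6 CPM.

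Neutrophil-like (237 ± 70.8 CPM) and macrophage-like cells (208 ± 42.4) did not differ in Pirb beyond their spread (SD, n = 4), and dendritic cell-like cells followed at 95.6 ± 11.1 CPM, below macrophage-like cells in 4 of 4 libraries (1.32 ± 0.24 on the log2 scale, edgeR adjusted p = 0.000205). T cell-like (10.2 ± 4.61) and cancer-like cells (7.67 ± 3.73) were in the range of background, at 10.6 to 17.0% and 8.02 to 13.3% of the free level. The genes with the most similar pattern were Lyn (r = 0.99), the kinase that phosphorylates such receptors, Spi1 (r = 0.98), which encodes the myeloid factor PU.1, and Csf2ra (r = 0.98). The promoter of Pirb, on the minus strand at chr7:3720383-3720632, is shown because Spi1 was among them, with a match to the PU.1-type letters GAGGAAGT in capitals, searched on both strands.
Pirb: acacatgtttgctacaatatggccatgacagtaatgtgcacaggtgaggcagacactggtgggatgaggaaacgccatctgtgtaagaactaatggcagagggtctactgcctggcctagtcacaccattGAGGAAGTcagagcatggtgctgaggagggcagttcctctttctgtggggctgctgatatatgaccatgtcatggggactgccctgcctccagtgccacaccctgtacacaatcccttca
The match lies 120 to 113 bases before the start, and 2.44% of all promoters of this length hold those letters. RefSeq promoters of 5 of the 9 members were matched by symbol. Those of Cd47, Siglecg and Lrp1 hold neither of these letter strings, and that of Lrp1 holds 1 match to the STAT-type letters TTCNNNGAA, which 7.02% of promoters hold.

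Lilrb4a (chr10:51490956-51496611, plus strand) encodes an inhibitory receptor also known as gp49B. It overlaps the protein-coding gene Gm49339 on the same strand and Gm40645 on the other, and Lilr4b is a near copy, so that reads could be shared. Neutrophil-like cells held 495 CPM in OE-Vector and 252, 187 and 528 CPM in OE-MLKL 1, 2 and 3, and macrophage-like cells 147 CPM against 178, 197 and 241 CPM. The OE-MLKL values lay all above OE-Vector in macrophage-like cells and on both sides of it in neutrophil-like cells. The log2 differences were 0.36 ± 0.29 and −0.87 ± 0.57 (edgeR adjusted p = 0.887 and 0.718), and without OE-MLKL 3 the neutrophil-like one was called at −1.39 (adjusted p = 0.0233). Dendritic cell-like cells held 51.4 CPM against 35.8, 39.5 and 40.3 CPM (−0.46 ± 0.47, adjusted p = 0.9999), a difference of 0.01 with a stricter gate.

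Lilrb4a ran from neutrophil-like (366 ± 171 CPM, SD, n = 4) over macrophage-like (191 ± 39.2), T cell-like (62.0 ± 23.1) and dendritic cell-like (41.7 ± 6.73) to cancer-like cells (9.45 ± 5.16). Neutrophil-like cells were above macrophage-like cells in 3 of 4 libraries (0.96 ± 0.23 on the log2 scale, edgeR adjusted p = 0.00103), and macrophage-like above T cell-like cells in 4 of 4 (1.94 ± 0.24, adjusted p = 8.2e-07). T cell-like and dendritic cell-like cells did not differ beyond their spread. T cell-like cells held 67.2 to 98.4% of the free level, well above the 10.6 to 17.0% of Pirb in the same cells, whereas cancer-like cells held 9.82 to 13.8%. The gene most like it was its near copy Lilr4b (r = 0.98).

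Lrp1 (chr10:127538161-127621148, minus strand), a large endocytic receptor that reads calreticulin, was the only member at an unadjusted p under 0.05 between the groups by edgeR, in macrophage-like and T cell-like cells. By DESeq2, Thbs1 in neutrophil-like cells was under that threshold as well. The non-coding gene Gm16217 lies across it in antisense. In macrophage-like cells it was at 327 CPM in OE-Vector and 705, 731 and 644 CPM in OE-MLKL 1, 2 and 3, which lie close together and all above OE-Vector. The log2 difference was 0.98 ± 0.35, with an unadjusted p of 0.0270 that did not survive adjustment over all genes (edgeR adjusted p = 0.833). T cell-like cells held 21.1 CPM against 42.4, 37.5 and 58.2 CPM, all above OE-Vector (1.07 ± 0.33, unadjusted p = 0.00960, adjusted p = 0.770). Without OE-MLKL 3 that difference was 0.98 with an adjusted p of 0.00713, but the T cell-like level was 6.85 to 14.2% of the free level, in the range of background.

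Cancer-like cells held 325 CPM of Lrp1 against 540.3, 414 and 509 CPM, all above OE-Vector as well (0.48 ± 0.36, edgeR adjusted p = 0.979). Neutrophil-like cells held 86.4 CPM against 106, 109.8 and 119.9 CPM, and dendritic cell-like cells 35.4 CPM against 71.5, 35.9 and 53.9 CPM. OE-Vector was the lowest library in all 5 cell types, and also in the barcodes of at most 100 UMIs, at 308 CPM beside 395 to 494 CPM in the OE-MLKL libraries. The dendritic cell-like level was 9.09 to 14.5% of that free level, in the range of background like the T cell-like one. Neutrophil-like cells were at 21.4 to 29.4% of it, also in the range of background, as Apoe was at 16.9 to 37.1% in these cells. The macrophage-like difference exceeded the cancer-like one by 0.52 ± 0.26 (edgeR adjusted p = 0.915). By mean level macrophage-like cells (602 ± 187 CPM) were above cancer-like cells (447 ± 97.7) in 4 of 4 libraries (0.62 ± 0.16, adjusted p = 0.00184), and these above neutrophil-like cells (105 ± 14.1; 1.69 ± 0.16, adjusted p = 1.1e-08), with dendritic cell-like and T cell-like cells at 49.2 ± 17.2 and 39.8 ± 15.3 CPM not separated (SD, n = 4), though they were when cells of several gates were kept (−0.60 for T cell-like minus dendritic cell-like, adjusted p = 0.0273).

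**Figure D4:**
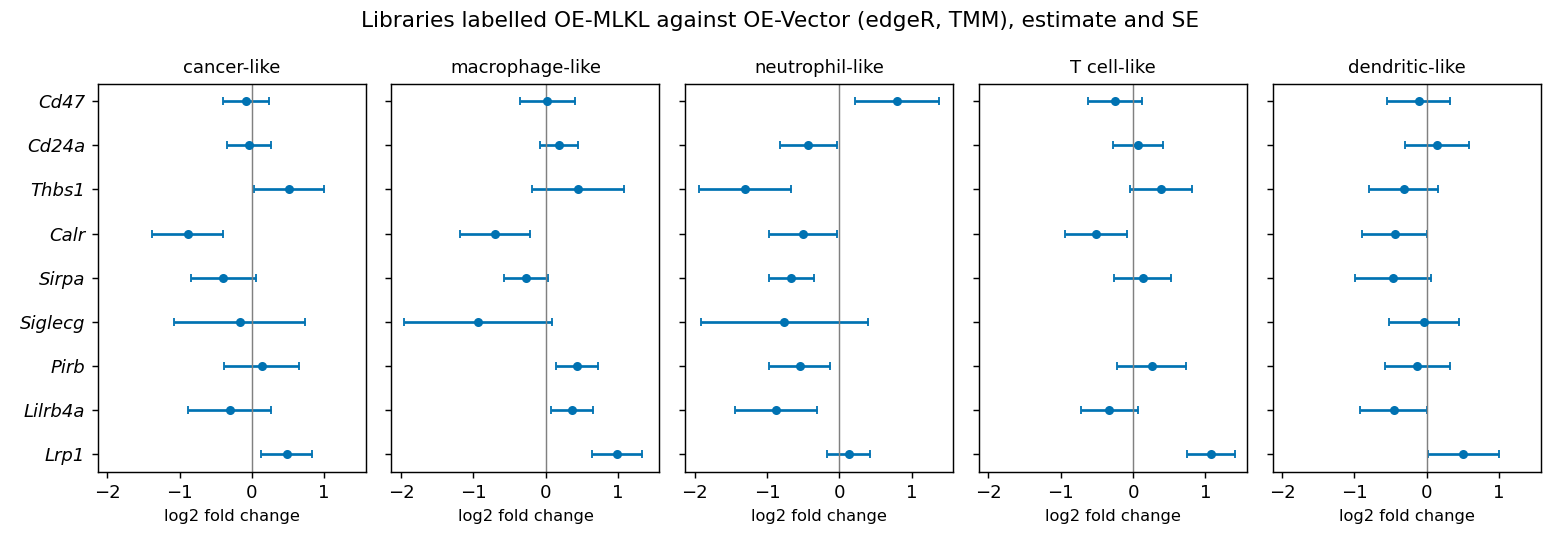
Log2 difference of the libraries labelled OE-MLKL from OE-Vector (horizontal axis) for each gene (rows) in each cell type (1 panel each), from the edgeR fit with TMM scaling, with bars of 1 SE and a line at 0. Lrp1 lies above 0 in all 5 cell types, at 0.98 in macrophage-like cells, Calr lies below 0 in all 5, and no value passed the test.

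The other genes of the pathway were taken as 7 lists, counted here without the 5 members that 2 of the lists hold, and edgeR called 0 of their genes between the groups in any cell type. At an unadjusted p under 0.05 there were 2 of 56 genes tested in cancer-like cells (4.87% of all genes), 6 of 55 in macrophage-like (5.84%), 3 of 54 in neutrophil-like (7.88%), 6 of 51 in T cell-like (5.07%) and 1 of 46 in dendritic cell-like cells (4.28%). DESeq2 called 1 of them, Cd36 in macrophage-like cells. Among 13 inhibitory myeloid receptors tested, the median log2 difference was −0.11 in cancer-like and 0.09 in macrophage-like cells, beside 0.03 and 0.04 for all genes, with 4 at an unadjusted p under 0.05 in macrophage-like cells, where that share of all genes was 5.84%. Of these, all named after their values were seen, Ceacam1 and Cd300a are given neither in values nor in direction. The receptors given next therefore do not stand for all of them. Cd300lf was at 88.5 CPM in OE-Vector and 306, 246 and 197 CPM in the OE-MLKL libraries, and Cd33, a sialic-acid receptor, at 106 CPM against 354, 295 and 224 CPM. Their log2 differences were 1.40 ± 0.41 and 1.36 ± 0.42 (adjusted p = 0.811 and 0.818). In neutrophil-like cells the receptors' median was −0.14, in T cell-like cells 0.19 and in dendritic cell-like cells −0.16.

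The 7 genes that handle CD47, calreticulin or LRP1 had medians of −0.82, −0.45, −0.68, −0.55 and −0.52 in cancer-like, macrophage-like, neutrophil-like, T cell-like and dendritic cell-like cells, with the ER chaperones above among them. Other ligands of inhibitory receptors, MHC class I included, had medians of −0.85, −0.47, −0.80, −0.47 and −0.32 in the same order. Their B2m, the light chain of MHC class I and thus of the ligand of PirB, named after its values were seen, was at 1310 CPM in cancer-like cells of OE-Vector and at 589, 507 and 978 CPM in OE-MLKL 1, 2 and 3. All 3 were below OE-Vector (−1.06 ± 0.39, edgeR adjusted p = 0.979). Among 7 receptors that promote engulfment the medians lay between −0.31 and 0.13, the upper value from 6 of them tested in dendritic cell-like cells. Cd36, a scavenger receptor, named after its values were seen, was at 59.9 CPM in macrophage-like cells of OE-Vector and 8.96, 6.68 and 16.3 CPM in the OE-MLKL libraries (−2.60 ± 0.41, edgeR adjusted p = 0.398). Medians of 11 signalling partners ran from −0.35 to 0.10 and of cytokines and factors that induce Cd47 from −0.54 to 0.19. Those of the 3 SIRP paralogs ran from −0.21 to 0.62. The upper value, in T cell-like cells, rests on 2 paralogs tested, and in dendritic cell-like cells the paralogs were not tested.

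Between cancer-like and macrophage-like cells, where 68.3% of all genes were called, the lists of receptors and their partners were mostly lower in cancer-like cells. Of 13 inhibitory receptors, 13 were lower, led by Lair1 (6.41 against 293 CPM) and Cd22 (0.296 against 16.0 CPM), with a median of −4.85 beside 0.06 for all genes. Between the 2 phagocytes, where 70% of all genes were called, 4 were higher in macrophage-like and 7 in neutrophil-like cells. Fcgr2b, the inhibitory Fc receptor, was at 675 CPM in macrophage-like and 93.1 CPM in neutrophil-like cells (2.73 ± 0.22 on the log2 scale, edgeR adjusted p = 1.4e-09), and Siglece at 41.4 against 199.8 CPM (−2.62 ± 0.22, adjusted p = 4.1e-09). Of 11 signalling partners 10 were lower in cancer-like than in macrophage-like cells, and Ptpn11, which encodes the phosphatase SHP-2, was higher (0.93 ± 0.12, adjusted p = 8.2e-07). All 7 receptors that promote engulfment were lower in cancer-like cells. Of the 7 genes that handle CD47, calreticulin or LRP1, 3 were lower and 0 higher in cancer-like than in macrophage-like cells, and 0 were lower and 5 higher than in neutrophil-like cells, where 80.5% of all genes were called.

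Patterns over the 20 sums of library and cell type, given as a description, set Sirpa beside Clec4a2 (r = 0.98), Clec4n (r = 0.97) and Slc11a1 (r = 0.96), which are myeloid genes. Cd47 had weaker likeness, with Stimate (r = 0.81), Fam104a (r = 0.80) and Prnp (r = 0.77) first, and Cd24a had Fam104a (r = 0.91), Jak2 (r = 0.90) and Vsig10 (r = 0.90). Thbs1 was most like Mgst1 (r = 0.94), and Lrp1 most like Slc6a8 (r = 0.97). Among the members themselves, Pirb and Lilrb4a had r = 0.82, Sirpa and Lilrb4a r = 0.77, Thbs1 and Lrp1 r = 0.76 and Cd47 and Cd24a r = 0.66, while Cd47 and its receptor Sirpa had r = −0.30. The sums share libraries, and depth and free RNA differ between cell types, so no p is given.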

How the data were processed

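Tumours from 3 OE-Vector and 3 OE-MLKL samples were labelled, and 4 count matrices were used. The authors deposited, per library, raw counts of UMIs for 32285 genes over all barcodes, with Cell Ranger 7.1.0 in the file headers and 2.1.1 in the submitters' processing notes, and mm10 as genome build. Whether intronic reads were counted is not given in the sources used here.

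From these counts, cells with at least 500 UMIs, over 200 genes, under 10% mitochondrial and at most 5% haemoglobin counts were kept. A cell was assigned to a type when its marker genes reached a minimum per 10000 UMIs (8 for cancer cells, 150 macrophage, 200 neutrophil, 20 T cell and 10 dendritic cell) and at least 3 distinct markers (2 for neutrophils). The marker genes were fixed in the design, and the minimums were set after seeing the data. No doublet caller was run, and cells in several gates were left out.

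UMIs were summed per library and cell type and tested with edgeR 4.0.16 (quasi-likelihood test, TMM, filterByExpr, Benjamini-Hochberg over all genes tested, threshold 0.05) in R 4.3.3 with limma 3.58.1. OE-MLKL against OE-Vector was fitted in each cell type (2 residual degrees of freedom), cell types in 1 fit with library as a term. Levels are CPM of the gate's summed UMIs. Fold changes use TMM, so signs near 0 can differ from CPM: TMM moved the median gene by −0.12, −0.11, −0.24, −0.05 and −0.07 (log2) against library-size scaling in cancer-like, macrophage-like, neutrophil-like, T cell-like and dendritic cell-like cells. Shares of cells were thinned to 500 UMIs. DESeq2 1.42.0 and the other settings are alternatives. Other steps ran in Python 3.11.15 (numpy 2.4.6, scipy 1.17.1). On simulated counts with 200 genes changed 4-fold, the test recovered 37.0%, 48.5%, 24.0%, 68.5% and 68.0% of them in the 5 group comparisons and 99.5% between cancer-like and macrophage-like cells, none with the wrong sign. False calls were 9 of 83, 16 of 113, 5 of 53, 17 of 154 and 9 of 145 calls in the group comparisons and 19 of 218 between those cell types.

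Gene positions are from GENCODE, GRCm38, in which 32158 of 32285 gene identifiers were matched. Promoters are from RefSeq, GRCm38.p6. The genes named are the 9 members, the 3 genes most like each and genes of 7 pathway lists, at most 4 per list and comparison, largest change first among those that pass the test, and list genes that did not pass are named only where the text says that they were chosen after their values were seen. The members and lists were chosen with earlier results of these data known. 1 list gene, Lilrb4b, was not found under that symbol.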

Additional observations from a re-analysis of the deposited data

Results flagged for a closer look

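In 3 genes, all 3 OE-MLKL libraries lay on one side of the OE-Vector library in one cell type and on the other side in another, and in each case the difference between the cell types was not tested. The same pattern was seen in 19.1% of the 8096 genes tested in all 5 cell types. Cd47 was higher in neutrophil-like cells, by 0.79 on the log2 scale (311 CPM against a mean of 630.4 CPM, and 0.46 without OE-MLKL 1), and lower in T cell-like cells, by −0.25 (376 against 322 CPM, and −0.39 to −0.12 with 1 OE-MLKL library left out). Depth of neutrophil-like cells differed between the libraries, and its part in the Cd47 difference was not tested. Thbs1 was higher in cancer-like cells, by 0.52 (484 against 738 CPM, and 0.17 without OE-MLKL 1), and lower in neutrophil-like cells, by −1.30 (1022 against 490.1 CPM). Lilrb4a was higher in macrophage-like cells, by 0.36 (147 against 205 CPM), and lower in dendritic cell-like cells, by −0.46 (51.4 against 38.5 CPM, and 0.0072 with the stricter gate). None of the 6 values passed the edgeR test.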

How the results depend on the processing

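With 1 OE-Vector library and 2 residual degrees of freedom, the group comparisons recovered 24.0 to 68.5% of simulated 4-fold changes, so that changes of that size can be missed. No paired analysis was possible because the groups share only 1 replicate number among the libraries with a matrix. Genes called in cancer-like, macrophage-like, neutrophil-like, T cell-like and dendritic cell-like cells (0, 3, 0, 3 and 26) became 117, 67, 79, 19 and 0 with DESeq2, where the difference between macrophage-like and cancer-like cells gave 38 in place of 0. Without a filter on low counts they were 22 in macrophage-like, 7 in neutrophil-like and 140 in T cell-like cells, and 12 for that difference. The stricter gate gave 0 in macrophage-like, 1 in T cell-like and 1 in dendritic cell-like cells, library-size scaling 8 in T cell-like and 17 in dendritic cell-like cells, and keeping cells of several gates 1 in T cell-like cells. Leaving out each OE-MLKL library gave 14 to 302, 4 to 432, 0 to 1276, 49 to 882 and 16 to 83 genes, and 0 to 770 for the difference, in each case most without OE-MLKL 3. The causes were not tested.

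Of 475 alternative values of the members between groups (53 results), 23 changed sign, all of them values that were not called. No member was called between groups in the main fits, so that no call could be lost. Library-size scaling turned Cd47 (0.038), Cd24a (0.069) and Siglecg (0.0079) in cancer-like and Siglecg (0.035) in dendritic cell-like cells. The stricter gate turned Cd24a (−0.045) and Sirpa (−0.12) in T cell-like cells, Cd24a (−0.013) and Lilrb4a (0.0072) in dendritic cell-like cells, and the Siglecg difference between macrophage-like and cancer-like cells (0.11). Leaving out 1 OE-MLKL library at a time gave values on both sides of 0: in cancer-like cells for Cd24a (−0.063 to 0.020), Siglecg (−0.80 to 0.094) and Pirb (−0.27 to 0.36), in macrophage-like cells for Cd47 (−0.24 to 0.17) and Thbs1 (−0.12 to 0.77), in T cell-like cells for Cd24a (−0.13 to 0.23), Sirpa (−0.15 to 0.29) and Pirb (−0.14 to 0.42), in dendritic cell-like cells for Cd47 (−0.24 to 0.022) and Pirb (−0.27 to 0.064), and for the difference between macrophage-like and cancer-like cells in Cd47 (−0.20 to 0.20), Thbs1 (−0.35 to 0.11) and Sirpa (−0.038 to 0.45). Without OE-MLKL 3 that difference passed the test for Lilrb4a (1.16, adjusted p = 0.00170), besides the 3 calls given with Siglecg, Lilrb4a and Lrp1.

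Of 360 alternative values between cell types (36 results), 11 changed sign, 10 lost a call and 2 gained one, Sirpa in cancer-like against T cell-like cells (−0.59) and Lrp1 in T cell-like against dendritic cell-like cells (−0.60), both with cells of several gates kept. Of 90 alternative shares of cells with a UMI, thinned to 1000 UMIs or not thinned, 87 moved by more than the spread between libraries. Shares rise as more UMIs are drawn per cell, so that such moves do not speak to the order of cell types. Library-size scaling turned Cd47 (0.13) and Calr (0.0083) in cancer-like against dendritic cell-like cells, Cd24a in macrophage-like against T cell-like cells (−0.058) and Thbs1 in cancer-like against neutrophil-like cells (0.20). No filter on low counts turned Cd47 in cancer-like against dendritic cell-like cells (0.078), the stricter gate Thbs1 in T cell-like against dendritic cell-like cells (−0.11), and keeping cells of several gates Siglecg in macrophage-like against T cell-like cells (−0.34). With 1 library left out, these pairs ran across 0 for Cd47 in cancer-like against dendritic cell-like cells (−0.16 to 0.042), Thbs1 in cancer-like against neutrophil-like (−0.58 to 0.34) and T cell-like against dendritic cell-like cells (−0.16 to 0.27), and Siglecg in cancer-like against T cell-like cells (−0.74 to 0.20).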
